A study of Homo sapiens with 9 samples.

Results

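ID1, ID2, ID3 and ID4 are the 4 members of the human ID family, the inhibitors of DNA binding and differentiation, and were followed here in MDA-MB-231, a line grown from a human breast cancer of the triple-negative kind. The deposited files list 55527 genomic intervals with a span of their own and carry no gene names, so each gene was found as the hg19 interval that best covered the known span of the gene, and its value in the fourth column was read in every library. The cells carried a lentiviral short hairpin RNA and had been selected with puromycin. The hairpin was shCTDP1-#2 or shCTDP1-#1, both against the RNA polymerase II phosphatase gene CTDP1, or the scrambled control shScr, and each of the 3 groups held 3 libraries, replicates 1 to 3. All groups share the parental line, the viral delivery and the selection. The intervals have no names, and hg19 spans were at hand for the ID genes alone. The level of CTDP1 and the markers of the cell line were therefore not analysed here. Whether replicates 1 to 3 were grown as separate cultures is not stated, so a p-value below reflects the spread among the sequenced libraries alone, and that spread may be technical.

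ID proteins carry a helix-loop-helix domain through which they pair with other helix-loop-helix factors, but they lack the basic stretch that contacts DNA. A pair that holds an ID protein cannot bind the E-box sites of E proteins such as TCF3, TCF4 and TCF12, so ID proteins act as brakes on the differentiation genes those factors drive. The ID genes are known as direct targets of bone morphogenetic protein (BMP) signalling through SMAD factors, and ID1 and ID3 are known for their part in lung metastasis of breast cancer cells. The level of the E proteins and of the BMP pathway in these libraries was not analysed here. Their intervals carry no names, and their hg19 spans were not at hand.

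The 4 matches were distinct. ID1 is the interval chr20:30193086-30194318, ID2 is chr2:8818975-8824583 and ID3 is chr1:23884409-23886285, each with an overlap over union of 1 with the span looked for. ID4 is chr6:19837617-19840915, with an overlap over union of 0.683, because the span looked for was longer. The next best interval reached 0.169 for ID2, 0.0056 for ID4 and 0 for ID1 and ID3. The chromosome and the length of each interval, 1233, 5609, 1877 and 3299 bases for ID1 to ID4, were identical to those of the gene of that name in GENCODE v29, a GRCh38 annotation in which all 4 are protein-coding. The RefSeq genes of ID1, ID2 and ID3 are shorter, at 1222, 2406 and 1576 bases, and that of ID4 is longer, at 4828 bases. The RefSeq starts used below need not be the starts of these intervals.

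The stretch just before the start of each gene is shown because the 4 genes were all higher with both hairpins and these letters are where their starts can be compared. The sequences are the RefSeq promoters of GRCh38.p14, matched by symbol for 4 of 4 members, cut to the 250 bases before the start and written 5′ to 3′ on the strand of the gene. They lie at chr20:31605039-31605288 (plus strand) for ID1, chr2:8681806-8682055 (plus) for ID2, chr1:23559502-23559751 (minus) for ID3 and chr6:19837120-19837369 (plus) for ID4. Capitals mark TATAA and CCAAT on either strand, so that CCAAT on the opposite strand reads ATTGG, and the overlapping TATAA matches of both strands in ID1 run together.
ID1: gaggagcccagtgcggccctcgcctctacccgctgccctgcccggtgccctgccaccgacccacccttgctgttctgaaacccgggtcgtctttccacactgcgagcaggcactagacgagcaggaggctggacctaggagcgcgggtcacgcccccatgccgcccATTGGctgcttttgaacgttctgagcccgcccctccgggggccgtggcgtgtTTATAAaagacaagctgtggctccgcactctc
ID2: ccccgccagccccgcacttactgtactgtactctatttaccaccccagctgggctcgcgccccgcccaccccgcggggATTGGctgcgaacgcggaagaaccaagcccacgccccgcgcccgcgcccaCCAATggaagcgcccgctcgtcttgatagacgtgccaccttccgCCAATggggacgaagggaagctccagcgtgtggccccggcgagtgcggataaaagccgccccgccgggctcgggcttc
ID3: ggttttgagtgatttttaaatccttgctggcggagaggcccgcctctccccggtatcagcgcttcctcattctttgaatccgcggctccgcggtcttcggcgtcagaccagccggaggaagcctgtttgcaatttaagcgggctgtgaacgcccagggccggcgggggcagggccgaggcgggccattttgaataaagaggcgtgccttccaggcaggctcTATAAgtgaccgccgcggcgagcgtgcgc
ID4: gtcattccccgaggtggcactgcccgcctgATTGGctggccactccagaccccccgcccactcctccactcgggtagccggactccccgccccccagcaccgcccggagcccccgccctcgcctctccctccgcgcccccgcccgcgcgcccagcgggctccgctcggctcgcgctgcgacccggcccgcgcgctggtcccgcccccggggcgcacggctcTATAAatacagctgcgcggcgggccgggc

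ID1, ID3 and ID4 hold TATAA, with the match on the strand of the gene beginning 31, 29 and 29 bases before the start. ID2 holds no exact TATAA, but the similar letters gataaaa, which the search did not count, stand near the end of its window. Whether ID2 lacks a TATA element was not tested. TATAA was found, on either strand and at any position, in 18.9% of 35091 RefSeq promoters of the same length. CCAAT occurs 3 times in ID2, once each in ID1 and ID4 and not in ID3, against 32% of all promoters with at least 1 match. The GC-box core GGGCGG, also searched on both strands, had 6 matches in ID4, 2 in ID1, 2 in ID2 and 0 in ID3, and 42.6% of all promoters hold it. The E-box letters CANNTG, which read the same on both strands, stand once each in ID2 and ID4, against 61.8% of all promoters. TGACG, the core of the cyclic AMP response element, was found once, in ID3 (21.2% of all promoters), and GGCGCC, a GC-rich element to which SMAD factors can bind, was found in none of the 4 (16.4%). The GC content was 66% in ID1, 69.2% in ID2, 62% in ID3 and 78.8% in ID4. A match describes the letters of the window and does not show that a factor binds there.

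Levels are in TPM, transcript abundance scaled by transcript length and to the same total in every library, so they can be compared between genes. An interval was tested if 3 or more libraries gave it at least 1 TPM. With both hairpins against CTDP1 all 4 ID genes stood higher than with shScr, and the lowest of the 6 knockdown libraries lay above the highest shScr library for each of them, as it did in 27.9% of the tested intervals. The family was chosen by these same levels against shScr, so they are given as a description without a test. ID2 ranked first among the tested intervals in both comparisons on the log2(TPM + 1) scale. The shScr libraries serve both comparisons, so the changes with the hairpins are not independent of each other. In RNA from whole cultures, more cells that express a gene and more RNA per cell cannot be told apart.

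ID2, which in the mouse is needed for the milk-producing outgrowth of the mammary gland, was nearly silent in the control cells. It stood at 66.3, 60.7 and 68.5 TPM in the shCTDP1-#2 libraries, at 80.6, 84.1 and 81.2 TPM in the shCTDP1-#1 libraries, and at 1.49, 1.18 and 1.92 TPM in the shScr libraries. No knockdown library came near the shScr range, and the shCTDP1-#1 libraries lay closer together than the shCTDP1-#2 libraries. The means were 65.2 ± 4.0 TPM with shCTDP1-#2 and 81.9 ± 1.8 TPM with shCTDP1-#1, against 1.53 ± 0.37 TPM with shScr (SD, n = 3 each), which makes the ratio of means 42.6 for shCTDP1-#2 and 53.6 for shCTDP1-#1. On the log2(TPM + 1) scale, which understates changes of genes at low level, the change was 4.72 (SE 0.10) with shCTDP1-#2 and 5.05 (SE 0.10) with shCTDP1-#1. With a pseudocount of 0.1 TPM in place of 1 these changes were 5.35 and 5.68. Among the 15011 tested intervals, ranked by mean TPM, ID2 was at percentile 79.5 with shCTDP1-#2 and 84.4 with shCTDP1-#1, against percentile 14.3 with shScr.

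ID3, an early target of BMP signalling often expressed together with ID1, stood at 1.85 times its shScr mean with shCTDP1-#2 and at 2.09 times with shCTDP1-#1. Its level was 64.3, 69.6 and 57.3 TPM in the shCTDP1-#2 libraries and 71.7, 72.8 and 71.4 TPM in the shCTDP1-#1 libraries, against 34.2, 35.5 and 33.5 TPM in the shScr libraries. The shCTDP1-#2 libraries were the most spread, and none of them reached the lowest shCTDP1-#1 library. The log2 change was 0.87 (SE 0.07) with shCTDP1-#2 and 1.05 (SE 0.07) with shCTDP1-#1.

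ID1 was the most abundant ID transcript in every library. It stood at 112, 132 and 109 TPM in the shCTDP1-#2 libraries and at 117, 137 and 132 TPM in the shCTDP1-#1 libraries, against 77.3, 68.7 and 79.5 TPM in the shScr libraries. The knockdown groups overlapped each other, and both lay wholly above shScr. The log2 change was 0.64 (SE 0.09) with shCTDP1-#2 and 0.77 (SE 0.09) with shCTDP1-#1, at a ratio of means of 1.57 and 1.71.

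ID4, a family member linked to basal-like breast cancer, was low throughout. It stood at 5.35, 5.21 and 4.89 TPM with shCTDP1-#2 and at 4.18, 5.73 and 5.20 TPM with shCTDP1-#1, against 2.69, 2.58 and 2.65 TPM with shScr. The shCTDP1-#2 values fell within the range of the shCTDP1-#1 values, and the lowest of all 6 was still above every shScr library. The log2 change was 0.76 (SE 0.12) with shCTDP1-#2 and 0.72 (SE 0.12) with shCTDP1-#1. The ratio of means, 1.95 and 1.91, was of the size seen for ID3, although the pseudocount keeps the log2 change of so low a gene smaller; with a pseudocount of 0.1 TPM the changes were 0.94 and 0.90.

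**Figure D1:**
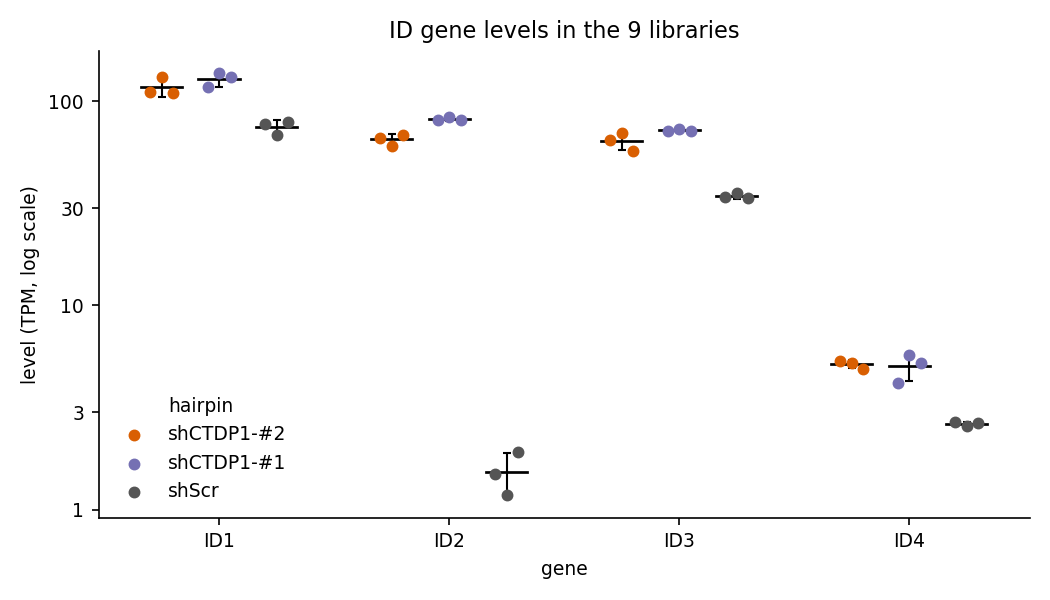
Level of each ID gene in TPM on a log axis, 1 point a library, with the mean as a bar and the SD as whiskers (n = 3 a group), for shCTDP1-#2, shCTDP1-#1 and shScr. In every gene the knockdown points lie above the shScr points, and ID2 stands apart, at 60.7 to 84.1 TPM in the knockdown libraries against 1.18 to 1.92 TPM with shScr.

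The changes of ID1, ID3 and ID4 were of a kind many intervals showed, while that of ID2 was at the end of the range. With shCTDP1-#2 the median log2 change of the 4 genes was 0.81, beside 0.13 over all tested intervals; with shCTDP1-#1 it was 0.91, beside 0.07. By change of log2(TPM + 1) from the highest, ID2 ranked 1 with both hairpins. ID3 ranked 1760 with shCTDP1-#2 and 1010 with shCTDP1-#1, ID1 ranked 2920 and 1896, and ID4 ranked 2238 and 2108. The first rank of ID2 depends on the pseudocount of 1 TPM. The interval chr19:56270380-56274541, at 0.467 TPM with shScr against 1.53 TPM for ID2, had a larger ratio of means than ID2 with both hairpins. Relative to the median of all tested intervals, the log2 change with shCTDP1-#2 was 0.51 for ID1, 4.59 for ID2, 0.74 for ID3 and 0.62 for ID4, and with shCTDP1-#1 it was 0.70, 4.98, 0.98 and 0.65 in the same order.

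**Figure D2:**
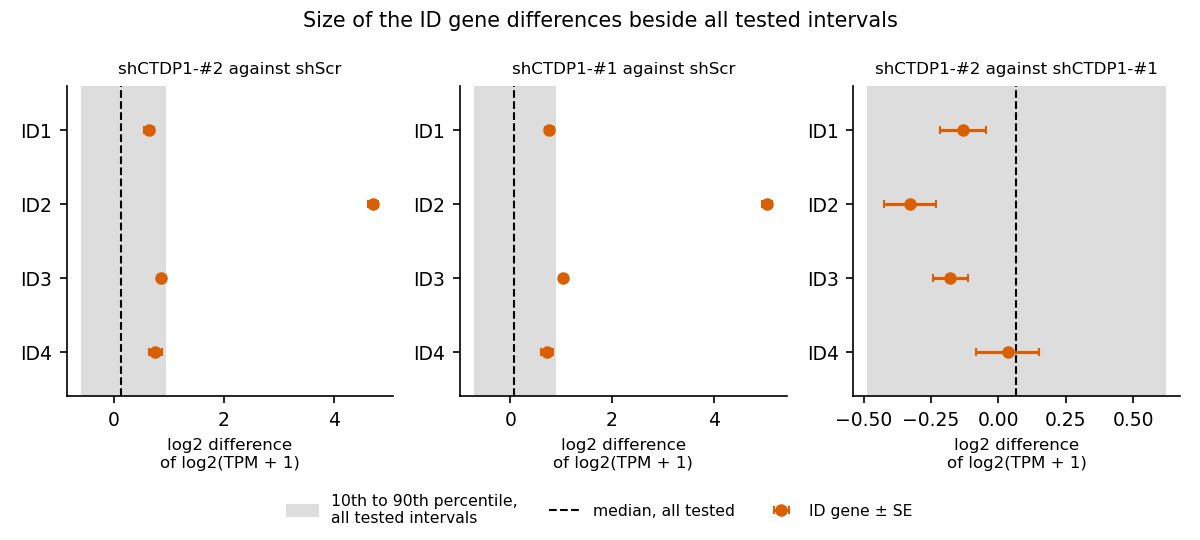
Log2 difference of each ID gene on the log2(TPM + 1) scale with its SE, for shCTDP1-#2 against shScr, shCTDP1-#1 against shScr and shCTDP1-#2 against shCTDP1-#1, over a band from the 10th to the 90th percentile of all 15011 tested intervals, with their median dashed; each panel has its own scale. ID2 lies far outside the band in both comparisons with shScr, at 4.72 and 5.05. ID3 lies above it with shCTDP1-#1, at 1.05 against a 90th percentile of 0.87. Between the hairpins all 4 genes lie inside the band.

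The order of the ID genes by level differed between knockdown and control libraries. With shCTDP1-#2 the order of the means was ID1, ID2, ID3, ID4, but ID2 and ID3, at 65.2 ± 4.0 and 63.7 ± 6.2 TPM (SD, n = 3), did not differ beyond their spread, and ID3 was above ID2 in replicate 2. With shCTDP1-#1 the order was the same in all 3 libraries, and ID2 exceeded ID3 by a ratio of 1.12 to 1.15. With shScr the order was ID1, ID3, ID4, ID2 in all 3 libraries, with ID2 at 0.0333 to 0.0574 of the level of ID3. In each group the other neighbours in the order had ranges that did not overlap.

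Summed over the 4 genes, the level was 252 ± 14 TPM with shCTDP1-#2 and 288 ± 13 TPM with shCTDP1-#1, against 114 ± 5 TPM with shScr (SD, n = 3 each). ID2 made up 26.0% ± 3.0 of that sum with shCTDP1-#2 and 28.5% ± 0.8 with shCTDP1-#1, against 1.34% ± 0.27 with shScr. The share of ID1 was 46.7% ± 2.3 with shCTDP1-#2 and 44.7% ± 1.7 with shCTDP1-#1, against 66.0% ± 2.1 with shScr. ID1 kept a lead over ID3 of 1.85 ± 0.10 with shCTDP1-#2 and 1.79 ± 0.14 with shCTDP1-#1, against 2.19 ± 0.23 with shScr, as a ratio of TPM within a library. The ratio of ID3 to ID4 was 12.4 ± 0.9 with shCTDP1-#2, 14.5 ± 2.3 with shCTDP1-#1 and 13.0 ± 0.6 with shScr, and its ranges overlapped between each pair of groups.

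**Figure D3:**
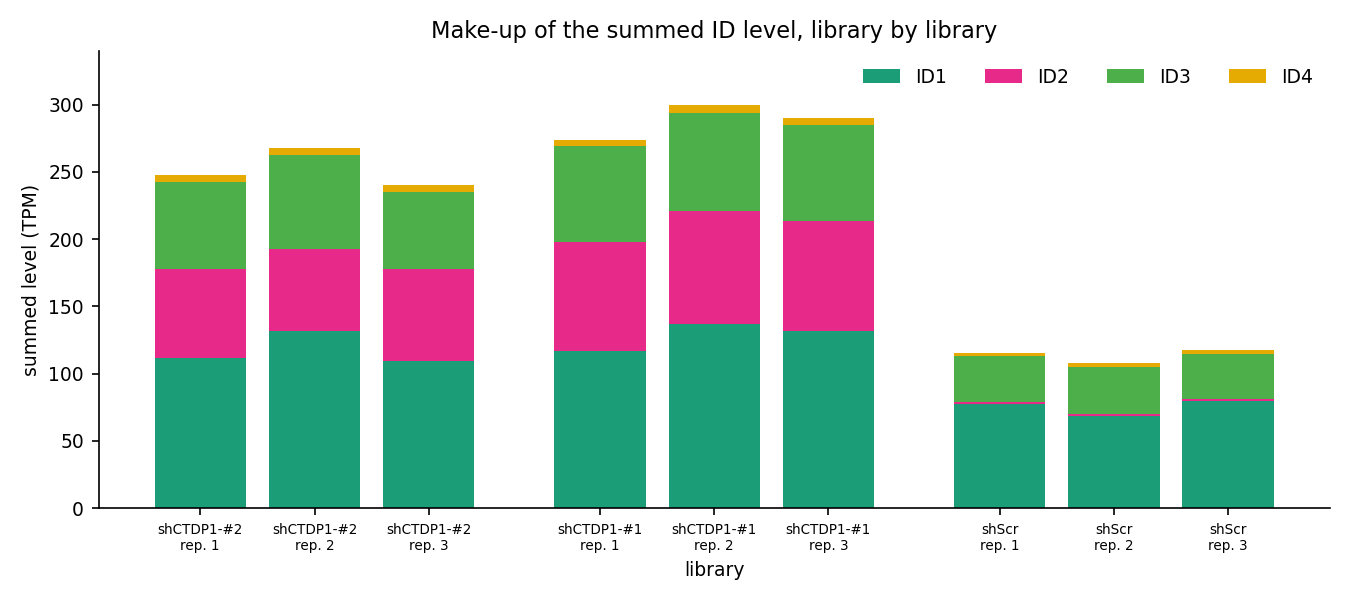
Summed TPM of ID1, ID2, ID3 and ID4 in each library as stacked bars, for shCTDP1-#2, shCTDP1-#1 and shScr with replicates 1 to 3. The knockdown bars reach 240 to 300 TPM against 108 to 118 TPM with shScr, and the ID2 layer, barely visible with shScr, is 60.7 to 84.1 TPM thick in the knockdown libraries.

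The hairpins were then compared with each other, a contrast that did not rank the genes. ID2 and ID3 were lower with shCTDP1-#2 than with shCTDP1-#1, and for ID1 and ID4 no difference passed the test. ID2 averaged 65.2 TPM with shCTDP1-#2 and 81.9 TPM with shCTDP1-#1, a log2 difference of -0.33 (SE 0.10, 95% interval -0.54 to -0.11, limma adjusted p = 0.017), and all 3 shCTDP1-#2 libraries were below all 3 shCTDP1-#1 libraries. ID3 averaged 63.7 TPM with shCTDP1-#2 and 72.0 TPM with shCTDP1-#1, a log2 difference of -0.18 (SE 0.07, 95% interval -0.32 to -0.03, limma adjusted p = 0.043), again with no overlap between the libraries. The calls were made among many: 50.2% of the tested intervals passed in either direction in this comparison, near the 2 of 4 genes. As lower with shCTDP1-#2, 20% of the tested intervals passed, and 23.4% had all shCTDP1-#2 libraries below all shCTDP1-#1 libraries. Whether ID2 and ID3 differed between the hairpins by more than ID1 and ID4 did was not tested.

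Neither call was firm. Without shCTDP1-#1 replicate 2 the limma adjusted p of ID2 was 0.056, and without shCTDP1-#2 replicate 2 it was 0.067. For ID3 the call was lost in 8 of the 9 fits that left out a library: without shScr replicate 1, 2 or 3 the limma adjusted p was 0.054, 0.051 and 0.053, without shCTDP1-#1 replicate 1, 2 or 3 it was 0.086, 0.10 and 0.080, and without shCTDP1-#2 replicate 1 or 3 it was 0.075 and 0.15. Without shCTDP1-#2 replicate 3 its log2 difference was -0.10, in place of -0.18.

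ID1 averaged 118 ± 13 TPM with shCTDP1-#2 and 129 ± 11 TPM with shCTDP1-#1, a log2 difference of -0.13 (95% interval -0.32 to 0.06, limma adjusted p = 0.24). ID4 averaged 5.15 ± 0.24 TPM with shCTDP1-#2 and 5.04 ± 0.79 TPM with shCTDP1-#1, a log2 difference of 0.035 (95% interval -0.23 to 0.30, limma adjusted p = 0.83) whose sign was the opposite under upper-quartile and median-of-ratios scaling and without shCTDP1-#1 replicate 1. The intervals leave room for differences of that width in either gene. The summed level of the 4 genes showed a difference of -35.9 TPM, shCTDP1-#2 minus shCTDP1-#1. It is given without a test, since an exact permutation of 3 libraries against 3 cannot go below p = 0.1.

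Profiles over the 9 libraries were compared by the root mean square difference of the log2(TPM + 1) values, each centred on its own mean, as a description over libraries that share groups. ID1 and ID4 differed by 0.11, with 0.24% of the tested intervals nearer to ID1 than ID4 was. ID1 and ID3 differed by 0.15, with 2.31% of intervals nearer to ID1, and ID3 and ID4 by 0.17. These differences do not order the pairs, because with a pseudocount of 0.1 TPM, tried after the values were seen, the pairs of ID1 and ID4, ID1 and ID3, and ID3 and ID4 differed by 0.153, 0.160 and 0.152. ID2 differed from the others by 1.86 to 1.98, and 99.9% of the tested intervals were nearer than ID2 to each of the other 3 genes.

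Outside the family, the interval nearest to ID2 was chr19:56270380-56274541, at a difference of 0.28. It stood at 25.6 TPM on average with shCTDP1-#2 and 42.0 TPM with shCTDP1-#1, against 0.467 TPM with shScr. The interval nearest to ID1 was chr4:20697905-20754530, at 0.073, with 49.3 TPM and 55.1 TPM against 31.6 TPM in the same order of groups. The nearest intervals of ID3 and ID4 lay at 0.064 and 0.060. The files give these intervals no names.

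The intervals around the ID genes were examined for changes of the same size. Within 500 kb of ID2 the files list 16 other intervals, of which 2 were tested. Their log2 changes were 0.72 and -0.32 with shCTDP1-#2 and 0.45 and -0.36 with shCTDP1-#1, against 4.72 and 5.05 for ID2 itself. By limma 1 was called higher and 1 lower with each hairpin. Around ID1, 5 of 40 intervals were tested, with log2 changes between -0.63 and 0.80 (shCTDP1-#2) and between -0.94 and 0.33 (shCTDP1-#1), and 3 were called higher and 2 lower with each. Around ID3, 17 of 40 were tested, of which 6 were called higher and 9 lower with shCTDP1-#2, and 8 higher and 5 lower with shCTDP1-#1. Their lowest and highest changes were -0.70 and 2.34 with shCTDP1-#2, and -1.50 and 1.24 with shCTDP1-#1, and ID3 lay between them. The single tested interval near ID4 had a log2 change of 1.04 with shCTDP1-#2, which was called, and -0.040 with shCTDP1-#1, which was not. These calls stand beside backgrounds of 64% of tested intervals called in either direction with shCTDP1-#2 and 63.1% with shCTDP1-#1.

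**Figure D4:**
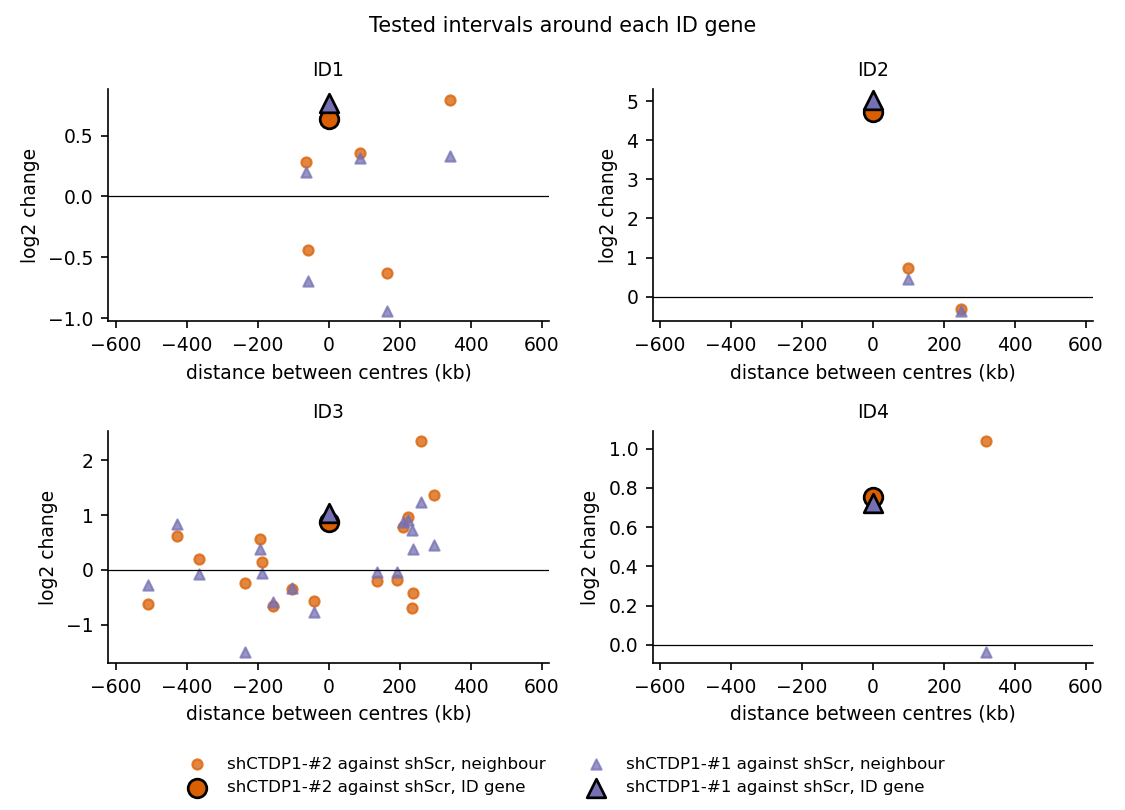
Log2 change on the log2(TPM + 1) scale of each tested interval within 500 kb of an ID gene, against the distance between centres in kb, with shCTDP1-#2 (circles) and shCTDP1-#1 (triangles) each against shScr; large outlined symbols are the ID gene itself, and each panel has its own vertical scale. The change of ID2 exceeds 4 while its 2 tested neighbours stay below 1, whereas ID1, ID3 and ID4 differ from at least 1 neighbour by less than 1.

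The library kit does not mark the strand of origin, so reads of overlapping transcripts cannot be told apart. The ID2 interval shares 3019 bases with chr2:8806766-8821993, which was listed at 0.16, 0.16 and 0 TPM with shCTDP1-#2 and at 0.28, 0 and 0.14 TPM with shCTDP1-#1, against 0 TPM in all 3 shScr libraries. The ID4 interval shares 1695 bases with an interval of 304137 bases that was listed at 0.15 TPM in 1 shCTDP1-#2 library and at 0 TPM in the other 8. Both were listed far below the gene they overlap. How shared reads were divided is not known, so these low values do not measure what an overlap adds. ID1 and ID3 overlap no other interval. RefSeq lists a pseudogene of ID2, ID2B, and reads that match both can be divided between them, so the level of ID2 carries that uncertainty.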

How the data were processed

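RNA of 9 MDA-MB-231 libraries, 3 a group, was sequenced after total RNA extraction and a TruSeq v2 preparation, per the labels' protocols. STAR, RSEM and hg19 were used, per the submitters' processing notes, of which no version is given in the sources used here. Per interval and library 1 value was deposited by the authors, scaled before deposit to the same total in every library and therefore taken as TPM, the unit RSEM reports. TPM keeps no depth, so the depth is unknown and no counting interval is given.

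Files were joined on coordinates, and the 2246 rows of 57773 that shared an interval were left out, with 0.355% to 0.391% of the TPM. An interval was tested if 3 or more libraries gave it 1 TPM or more, which held for 15011. The limma package (3.58.1, under R 4.3.3 with statmod 1.5.0) was applied to log2(TPM + 1) of all 9 libraries with its trend and robust options, with Benjamini-Hochberg adjustment over all tested intervals and a threshold of 0.05; the test was checked on simulated data. For the ID genes, contrasts with shScr are described without p-values. Calls in these contrasts are counted for the intervals around the ID genes and over all tested intervals. The mitochondrial share of TPM was 4.49% in shScr replicate 1 and 1.12% to 2.29% in the other 8 libraries. Its part in the ID changes is measured by a fit without mitochondrial intervals.

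The members, lists and tests were chosen with earlier results of these data known. Named are the 4 members and, of the intervals with the most similar profile, the 2 nearest to ID1 and ID2, since at most 2 unnamed risen intervals are printed. The planned permutation test of the summed ID level could not reach the threshold and is not given. The planned pathway and cell-line marker lists need names or hg19 spans and were not analysed here. Alternatives were another pseudocount, no filter, 3 scalings, a fit of the 2 groups compared, the replicate number as a block, and each library left out in turn.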

Additional observations from a re-analysis of the deposited data

Results flagged for a closer look

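ID2 and ID3 were lower with shCTDP1-#2 than with shCTDP1-#1 in a test of that difference. The log2 difference of shCTDP1-#2 minus shCTDP1-#1 was -0.33 for ID2 (limma adjusted p = 0.017) and -0.18 for ID3 (limma adjusted p = 0.043), with 3 of 3 shCTDP1-#2 libraries below every shCTDP1-#1 library for both. The call was lost in 3 of 16 alternatives for ID2 and in 10 of 16 for ID3. Over all tested intervals, 50.2% passed the same test in either direction and 20% as lower with shCTDP1-#2. ID1, which did not pass, had a difference of -0.13 whose 95% interval, -0.32 to 0.06, overlaps that of ID3, and no test compared the genes with each other. The level of CTDP1 with each hairpin was not analysed here.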

How the results depend on the processing

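All 8 changes against shScr kept their direction in the 16 alternatives run for each. With a pseudocount of 0.1 TPM the log2 change of ID2 was 5.35 with shCTDP1-#2 and 5.68 with shCTDP1-#1, and that of ID4 0.94 and 0.90. Median-of-ratios scaling shifted the median of all tested intervals by -0.12 with shCTDP1-#2, and gave 0.50 for ID1, 0.74 for ID3 and 0.65 for ID4 there, and 0.99 for ID3 with shCTDP1-#1; upper-quartile scaling gave 0.70 for ID4 with shCTDP1-#2. Under median-of-ratios scaling 50.3% of the calls with shCTDP1-#2 were higher, against 61.6% with TPM as deposited. With mitochondrial intervals left out of the total, no change moved beyond the spread between libraries.

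Between the hairpins, ID2 missed the threshold with a pseudocount of 0.1 TPM (-0.33, limma adjusted p = 0.067), and ID3 without the filter on low intervals (-0.18, limma adjusted p = 0.089) and in a fit of only the 2 groups compared (-0.18, limma adjusted p = 0.062). The cause of these losses was not tested. With a pseudocount of 0.1 TPM the SE of ID2 went from 0.0976 to 0.136. In the fit of only the 2 groups compared, which leaves out shScr, the SE of ID2 was 0.0538. Dropping the filter raised the number of intervals tested and also moved the SE of ID3, from 0.0652 to 0.0661. Over the alternatives the adjusted p ran from 0.0013 to 0.067 for ID2 and from 0.0086 to 0.15 for ID3. With each library left out in turn, the difference ran from -0.36 to -0.28 for ID2, from -0.24 to -0.10 for ID3, from -0.22 to -0.080 for ID1 and from -0.072 to 0.12 for ID4. Upper-quartile and median-of-ratios scaling gave larger differences, at -0.39 and -0.40 for ID2 and -0.24 and -0.25 for ID3. For ID1 they gave -0.19 and -0.20, which still did not pass. ID4 turned to -0.019 under upper-quartile scaling, to -0.026 under median-of-ratios scaling and to -0.072 without shCTDP1-#1 replicate 1. A group left with 2 libraries borrows its spread from the pooled fit. Counts of called intervals stayed within 1.5 times in every alternative run.

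Replicate numbers recur in the groups. Libraries that share a number deviated from their group means with correlations of -0.0066 to 0.053, against -0.046 to 0.024 for libraries that do not. The ranges overlap and do not settle whether the numbers pair libraries. The main fit has no block because the labels name no shared batch. For 8 of 9 libraries the best correlation was with a library of the same number, which hints at a link the design does not state. With the replicate block the hairpin difference was -0.33 for ID2 (limma adjusted p = 0.015), -0.18 for ID3 (0.031), -0.13 for ID1 and 0.035 for ID4, and the block changed no call among the 4 genes; 7425 intervals were called between the hairpins, against 7538 without it. TPM gives no depth, so the precision of the low values of ID2 with shScr and of ID4 is unknown beyond the spread between libraries.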
